A study of Mus musculus with 2 samples.

Results

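Slc17a6, Tcf7l2, Zic1, Ramp3, Prkcd, Rora, Gbx2, Lef1, Calb2 and Ntng1 are genes used to mark the thalamus and the septum, the brain regions that adjoin the striatum. They were taken as a fixed list of 10 genes out of 18193 measured, and every probe set that the platform annotation pairs with just one of them was read, 28 of 34945 such probe sets. A probe set is a group of short oligonucleotides on an Affymetrix array that reads one stretch of messenger RNA. The samples were striatum of a Drd2-/- mouse line, which lacks the dopamine D2 receptor, and of wild type (WT), both from untreated male C57BL/6 mice aged 2 months. Each genotype had 1 array, which gives no replicate error, so no difference was tested and no p-value is printed. The making of the Drd2-/- allele, and whether tissue was pooled over animals, were not stated in the labels.

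The thalamus relays sensory and motor signals to the cortex and also sends glutamate-releasing fibres into the striatum, while the cell bodies of those neurons, where most messenger RNA lies, stay in the thalamus. The septum lies along the midline beside the striatum and holds inhibitory and cholinergic neurons. In a piece of striatum cut by hand, transcripts of such neighbours show how far the cut reached, although several of the 10 genes also have their own cells inside the striatum. Rora is active in many neurons and in astrocytes, Lef1 in blood vessels of the brain, Tcf7l2 in maturing oligodendrocytes, and Calb2 in a class of striatal interneurons. In bulk tissue, fewer cells of a type and less RNA per cell cannot be told apart.

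The tissue label was borne out by the striatal genes. Ppp1r1b, which encodes DARPP-32, a phosphatase inhibitor of striatal projection neurons, read 14019 signal units in Drd2-/- and 16454 in WT, and all 14 measured genes of the striatal list were called present on both arrays. Drd2 itself read 27.4 units and was called absent in Drd2-/-, against 3235 units and present in WT, so the targeted gene matches the sample labels. The authors' deposited comparison table carries these signals with its genotype names the other way round, and its log ratios were turned to match the samples. The arrays had 58.7% of probe sets present in Drd2-/- and 57.9% in WT, with median signals of 132.6 and 104 units. Ratios below are log2 of the Drd2-/- signal over the WT signal, and present or absent is the call in the authors' deposited table.

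Of the 10 genes, 9 were detected, meaning that the brightest probe set was called present on at least 1 array, and 7 were present on both. Slc17a6 and Ramp3 read at least 1.5-fold lower in Drd2-/-, Rora read at least that much higher, Gbx2 lay exactly at 1.5-fold higher, and the other 5 detected genes lay within 1.17-fold of equality. Over all 12588 detected genes, 9.18% passed that size upward and 3.38% downward. When detected genes were divided into 4 equal groups by mean signal, the dimmest group, which held Slc17a6 and Gbx2, had larger shares of 20.4% upward and 7.94% downward. The next group, with Ramp3 and Rora, had 8.01% and 3.11%. The median ratio of the 9 detected genes was 0.08, beside -0.06 for all detected genes. The members differed in both directions and did not move as one group.

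**Figure D1:**
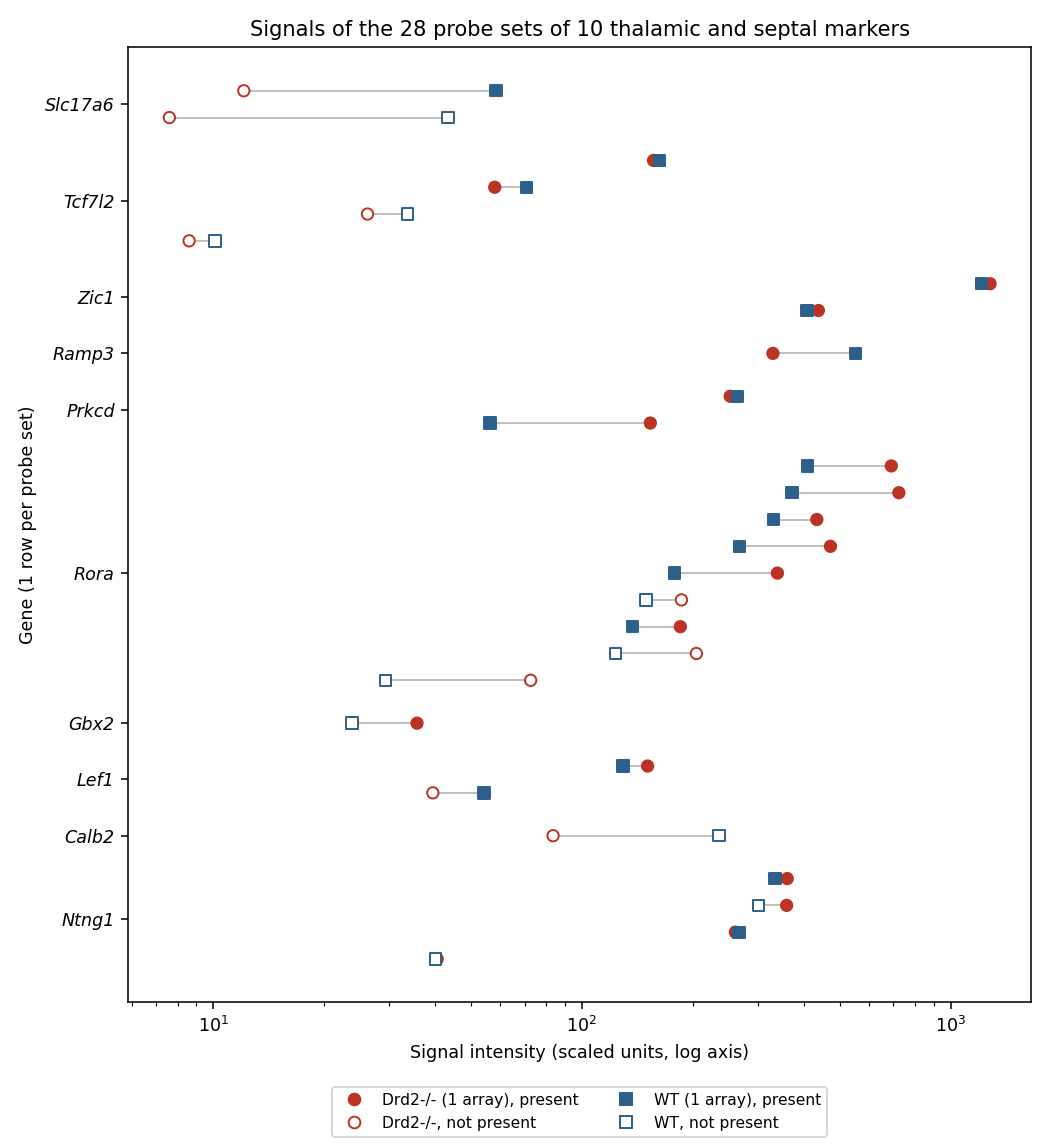
Signal intensity in scaled units on a log axis for each of the 28 probe sets, 1 row each, with circles for the Drd2-/- array and squares for the WT array; filled symbols were called present. All 9 rows of Rora have the Drd2-/- circle to the right, both rows of Slc17a6 have it far to the left, and the pairs of Zic1 nearly touch.

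Across the 28 probe sets, 16 were present on both arrays, 4 on 1 array and 8 on neither. Among the 20 detected, 13 were higher and 7 lower in Drd2-/-, with a median ratio of 0.17. The median over all detected probe sets paired with 1 gene was 0. Rora supplied 6 of those 20, and the median of the 14 others was 0.02. At 1.5-fold, 6 probe sets were higher, 4 of them of Rora, and 2 were lower. Over all detected probe sets paired with 1 gene, 14.2% passed this size upward and 3.33% downward.

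Slc17a6 encodes the vesicular glutamate transporter VGLUT2, which loads glutamate into the synaptic vesicles of thalamic relay neurons. Its brighter probe set read 12.1 units in Drd2-/- and 58.5 units in WT, absent in Drd2-/- and present in WT. The second read 7.6 units in Drd2-/- and 43.3 units in WT and was absent on both arrays. Of the 4 readings, the brighter probe set in WT was thus the only one called present. From the brighter probe set the signal was 4.83-fold lower in Drd2-/-, a ratio of -2.27 that rests on a signal called absent. The log ratios of both probe sets in the authors' deposited table, turned to Drd2-/- over WT, were -2.7 (limits of -4.9 and -0.4) and -2.3 (limits of -3.9 and -0.8), and both were called unchanged. With 32 units added to both arrays the ratio was -1.04, so the size of the difference is not firm.

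Its close relative Slc17a7 encodes VGLUT1, the transporter of cortical excitatory neurons, and read 127 units in Drd2-/- and 392 units in WT, a ratio of -1.62, present on both arrays. The authors' deposited table calls that probe set decreased, at -1.8. Both glutamate transporters measured here therefore read lower in Drd2-/-. Among cortical excitatory neuron markers, 6 of 11 detected passed 1.5-fold downward and 0 upward, beside 3.38% and 9.18% of all detected genes. The lowest were Neurod6 (-2.51), Nr4a2 (-2.31), Tbr1 (-2.12, absent in Drd2-/-) and Slc17a7. The other 5 lay within 1.5-fold, and the 3 brightest genes of the list, Nrgn (0.08), Lamp5 (0.17) and Mef2c (0.05), lay slightly above 0. The list median was -0.82, and the summed signal over the 13 measured was 15205 units in Drd2-/- and 15891 in WT. Most of that sum came from Nrgn, Lamp5 and Mef2c, at 5474, 5334 and 3211 units in Drd2-/- and 5189, 4727 and 3100 units in WT. The sum therefore says little about the dimmer genes of the list. That list was chosen with earlier results of these arrays known and holds genes already seen to be low. Its part in the Slc17a6 difference was not tested.

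Gbx2 encodes a homeobox transcription factor of the developing thalamus. Its only probe set read 35.7 units and was present in Drd2-/-, and read 23.8 units and was absent in WT. The ratio was 0.58, which is exactly the 1.5-fold limit. The log ratio in the authors' deposited table was 0.3 (limits -1.2 and 1.9), called unchanged, so no direction is settled for Gbx2. Its relative Gbx1, a homeobox gene of basal forebrain neurons, read 89.5 units in Drd2-/- and 61.3 units in WT, a ratio of 0.55, under the 1.5-fold limit.

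Tcf7l2 and Lef1 encode HMG-box transcription factors that act with beta-catenin, the effector of Wnt signalling, and both mark thalamic neurons. The brightest Tcf7l2 probe set read 156 units in Drd2-/- and 162 units in WT, a ratio of -0.05, and the second read 58.0 and 70.6 units, a ratio of -0.28. These readings were close between the genotypes, but the descriptions in the authors' deposited table give both probe sets to another gene, Tcf4, a basic helix-loop-helix factor that shares an old name with Tcf7l2. The 2 probe sets that the descriptions and the annotation both give to Tcf7l2 read 26.2 and 8.6 units in Drd2-/-, against 33.7 and 10.1 units in WT, and were absent on both arrays. On those alone, Tcf7l2 was not detected in either genotype. The probe set at 26.2 units in Drd2-/- is also named Tcf4 in its description. The division was made by the gene locus number given there and not by the name.

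Lef1 had the same difficulty. Its brighter probe set read 151 units in Drd2-/- and 129 units in WT, a ratio of 0.22, and is described in the authors' deposited table under an unnamed expressed sequence. The probe set described as Lef1 read 39.4 units and was absent in Drd2-/-, and read 54.2 units and was present in WT, a ratio of -0.46. The probe sets thus ran in opposite directions, and neither reached 1.5-fold. The authors' deposited table has them at -0.2 and 0.2, each opposite to the signals, and calls both unchanged. Of 9 detected genes on a list of TCF/LEF factors, Wnt receptors and Wnt targets, none was 1.5-fold apart. They included beta-catenin itself (Ctnnb1, -0.04) and the feedback target Axin2, which read 385.5 units in Drd2-/- and 416 units in WT. The list median of 0.00 is the value of Notum and not a measured ratio. Notum read 100.5 units and was marginal in Drd2-/-, and read 71.2 units and was present in WT. Its ratio was set to 0 because the array without a present call was the brighter.

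Zic1 encodes a zinc finger transcription factor of septal neurons that is also active in other parts of the basal forebrain. It read 1279.7 units in Drd2-/- and 1213 units in WT, present on both arrays, a ratio of 0.08. Its second probe set read 438 units in Drd2-/- and 408 units in WT, a ratio of 0.10. Both probe sets were thus within 1.08-fold of equality, and the authors' deposited table calls both unchanged, at -0.1 and 0.1. Of the other Zic genes, Zic2 (24.8 units in Drd2-/- and 31.4 in WT) and Zic4 (74.1 and 95.5 units) were absent on both arrays. Zic5 had 1 probe set present on both arrays, at 78.4 units in Drd2-/- and 45.6 units in WT, a ratio of 0.78. For that probe set the authors' deposited table gives 0.1 and calls it unchanged.

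Rora encodes RORα, a nuclear receptor that switches on clock genes and is strongly active in thalamic neurons and in the cerebellum. Its signal was higher in Drd2-/- at all 9 probe sets. The representative read 691 units in Drd2-/- and 409.8 units in WT, a ratio of 0.75, and the next brightest read 724 units in Drd2-/- and 371 units in WT, a ratio of 0.96. Those are the probe sets designed on full-length messages that were called present. Among probe sets designed on expressed sequence tags, the 4 present on both arrays had ratios of 0.39, 0.43, 0.82 and 0.93. The descriptions in the authors' deposited table name no gene for those 4, which only the platform annotation gives to Rora. Altogether the 6 probe sets present on both arrays ran from 0.39 to 0.96 with a median of 0.79, and 4 of them passed 1.5-fold. The other 3 were absent on both arrays, at 72.6, 186 and 204 units in Drd2-/-, against 29.3, 149 and 123.5 units in WT. Of these, the probe set at 204 units in Drd2-/- is described under another gene.

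Read in the direction of the sample labels, the authors' deposited table calls the same 6 Rora probe sets increased, with log ratios between 0.4 and 1. They are the only member probe sets called changed there, the other 22 being called unchanged; over all detected probe sets paired with 1 gene, 11.8% were called increased and 4.35% decreased. Of 132 genes with at least 6 probe sets present on both arrays, 33 (25%) had all of them higher in Drd2-/- and 4 (3.03%) had all of them lower. In 5 of the 132 (3.79%), Rora among them, the authors' deposited table calls every such probe set increased. The median over probe sets was as high as that of Rora in 8 of the 132, Rora included. Rora lies on chromosome 9, as Drd2 does, with 216 protein-coding genes between them in the RefSeq table, and Zic1 lies farther along it.

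**Figure D2:**
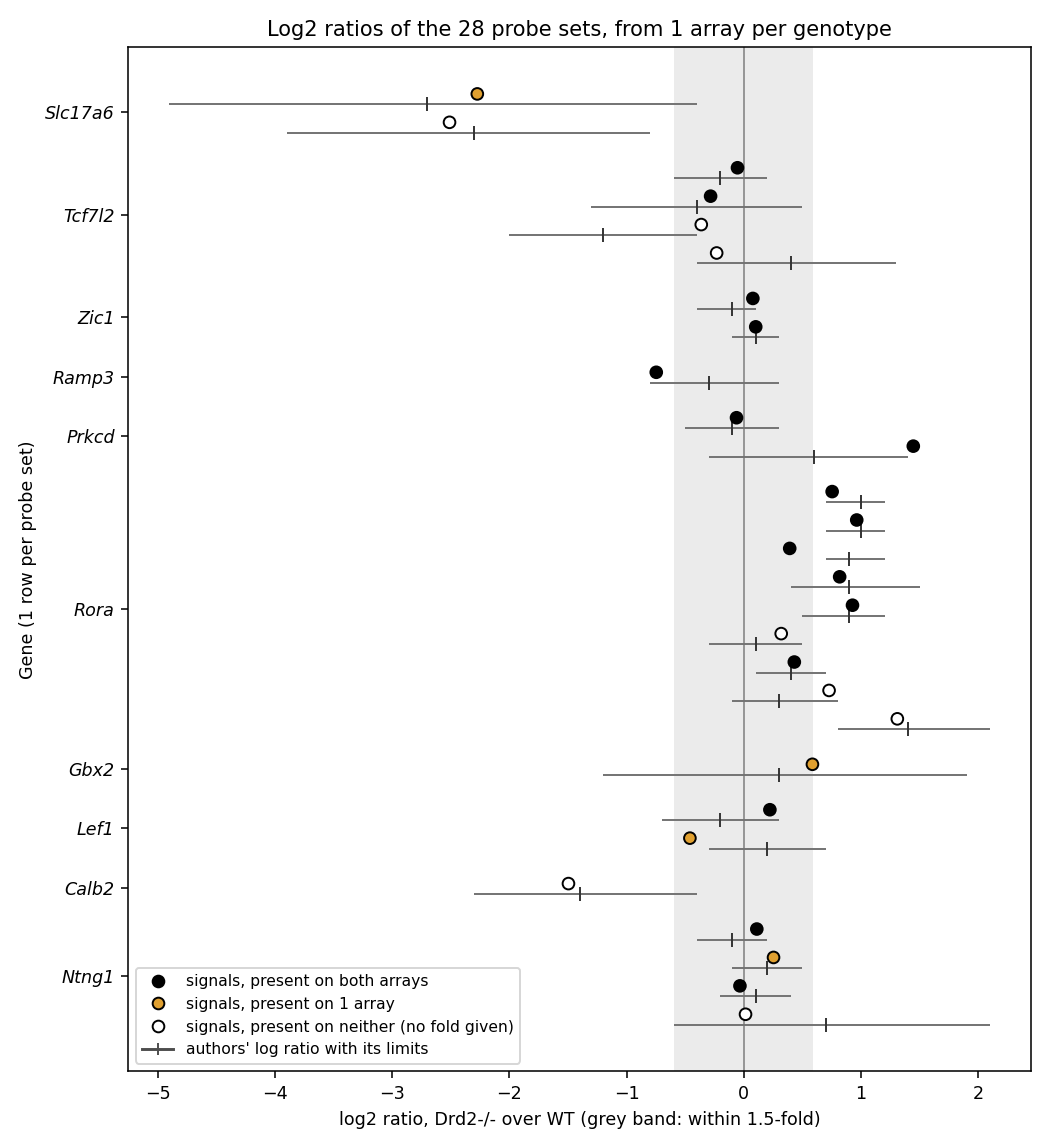
Log2 ratio of Drd2-/- over WT for each of the 28 probe sets, from the signals (circles) and from the authors' deposited table with its limits (ticks and lines); the grey band is 1.5-fold either way. The 6 filled Rora circles lie between 0.39 and 0.96, the Slc17a6 points lie left of -2, and the lower Prkcd circle stands apart from the upper one.

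Of the relatives of Rora on the list of ROR and REV-ERB receptors, 1 of the 2 detected passed 1.5-fold, upward, beside 9.18% of all detected genes. Nr1d2 encodes REV-ERBβ, a repressor that binds the same DNA element as the ROR activators, and read 5011 units in Drd2-/- and 2707 units in WT, a ratio of 0.89. Its second probe set read 614 units in Drd2-/- and 365 units in WT, a ratio of 0.75, and the authors' deposited table calls both increased, at 0.6 each. Rorb, another ROR receptor, read 284 units in Drd2-/- and 216.5 units in WT, and its 3 probe sets had ratios of 0.20, 0.26 and 0.39. The authors' deposited table calls all 3 unchanged, at 0, 0.4 and 0.3. Nr1d1, which encodes REV-ERBα, was absent on both arrays at 337 units in Drd2-/- and 357 units in WT.

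The promoters of Rora and Nr1d2 are shown because both genes read higher and because ROR and REV-ERB proteins bind the half-site AGGTCA, which was searched for on both strands. The windows run from 250 bases before to 50 bases after the start site in RefSeq, build GRCm38.p6, on the gene's own strand, at chr9:68653536-68653835 (plus strand) for Rora and chr14:18239057-18239356 (minus strand) for Nr1d2. Capitals mark the match.
Rora: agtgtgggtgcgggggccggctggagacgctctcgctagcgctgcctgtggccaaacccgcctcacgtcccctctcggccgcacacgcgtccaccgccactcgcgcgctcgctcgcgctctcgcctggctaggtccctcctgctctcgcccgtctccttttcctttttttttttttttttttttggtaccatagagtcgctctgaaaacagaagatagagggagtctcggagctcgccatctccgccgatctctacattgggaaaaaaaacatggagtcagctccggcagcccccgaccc
Nr1d2: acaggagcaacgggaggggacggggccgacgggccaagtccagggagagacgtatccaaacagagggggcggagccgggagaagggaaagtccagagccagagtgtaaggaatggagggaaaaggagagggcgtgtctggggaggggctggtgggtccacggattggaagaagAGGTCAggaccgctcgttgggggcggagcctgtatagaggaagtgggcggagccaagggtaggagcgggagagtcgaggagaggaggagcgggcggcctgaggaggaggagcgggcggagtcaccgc
The Nr1d2 window holds 1 match, 77 bases before the start site, and these letters do not occur in the Rora window. Of 32851 promoter windows in the same table, 16.3% hold the half-site on either strand. A match describes the sequence and is not evidence of binding. Only the window shown was searched for each gene, so the lack of a match for Rora covers no other stretch of that gene.

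Ramp3 encodes a small membrane protein that escorts calcitonin-family receptors to the cell surface and sets which peptide they bind. Its only probe set read 329.6 units in Drd2-/- and 553 units in WT, present on both arrays. That is 1.68-fold lower in Drd2-/-, a ratio of -0.75, and 41 of the 3147 genes of its signal group (1.30%) were as low. The same share in a gene's own signal group and direction was 4.86% for Rora, 20.4% for Gbx2 and 0.38% for Slc17a6. In the authors' deposited table the Ramp3 difference was smaller, -0.3 (limits -0.8 and 0.3), and called unchanged. Its relatives were close between the arrays: Ramp1 had a ratio of -0.10 and Ramp2 of 0.10. The calcitonin receptor-like receptor Calcrl read 91.6 units in Drd2-/- and 94.7 units in WT. The calcitonin receptor gene Calcr, at 45.4 units and present in Drd2-/- and 29.7 units and absent in WT, had a ratio of 0.61. The authors' deposited table calls it increased, at 0.1.

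Prkcd encodes protein kinase Cδ, a signalling kinase abundant in thalamic relay neurons. The probe set designed on its full-length message read 252.5 units in Drd2-/- and 264 units in WT, a ratio of -0.06. The other, designed on an expressed sequence tag whose description names no gene, read 153 units in Drd2-/- and 56.3 units in WT, a ratio of 1.45. Both were present on both arrays, so the reading for Prkcd depends on the probe set. The authors' deposited table calls both unchanged, at -0.1 and at 0.6 with limits of -0.3 and 1.4. None of the 8 measured protein kinase C genes was 1.5-fold apart by its representative probe set. Of these, 7 lay below 0, with Prkch the lowest at -0.53 and the forebrain isoform Prkcb at -0.10. Over all detected genes, only 40.4% lay above 0, so ratios slightly below 0 were common on these arrays.

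Calb2 encodes calretinin, a calcium-binding protein of certain thalamic nuclei and of interneurons. Its single probe set read 83.5 units in Drd2-/- and 235.5 units in WT but was called absent on both arrays, so no fold is given. Signals of that size were called present for other members. The call compares matched with mismatched oligonucleotides of a probe set and is not a limit on brightness. For the Calb2 probe set the authors' deposited table gives a log ratio of -1.4 (limits -2.3 and -0.4), called unchanged. The related calcium buffer calbindin (Calb1), abundant in striatal projection neurons, read 9103 units in Drd2-/- and 7029.5 units in WT, a ratio of 0.37. Its other 3 probe sets, with far lower signals, had ratios of 1.03, 1.30 and 2.25, and the authors' deposited table calls all 4 increased. Parvalbumin (Pvalb) went the other way, at 1547 units in Drd2-/- and 1983 units in WT.

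Ntng1 encodes netrin-G1, a membrane-anchored adhesion protein on thalamic axons that pairs with the ligand NGL-1. Its brightest probe set read 360.5 units in Drd2-/- and 334 units in WT, a ratio of 0.11. The other probe set present on both arrays read 261 units in Drd2-/- and 267 units in WT, a ratio of -0.03. Another, described under an unnamed clone, read 359 units and was present in Drd2-/- and read 301 units and was marginal in WT. None of the Ntng1 probe sets reached 1.5-fold, and the authors' deposited table calls all 4 unchanged. The NGL ligand genes lay below 0 without reaching 1.5-fold, with Lrrc4c, which encodes NGL-1, at -0.16, Lrrc4 at -0.41 and Lrrc4b at -0.39. Over all detected genes the median was -0.06 and 40.4% lay above 0.

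**Figure D3:**
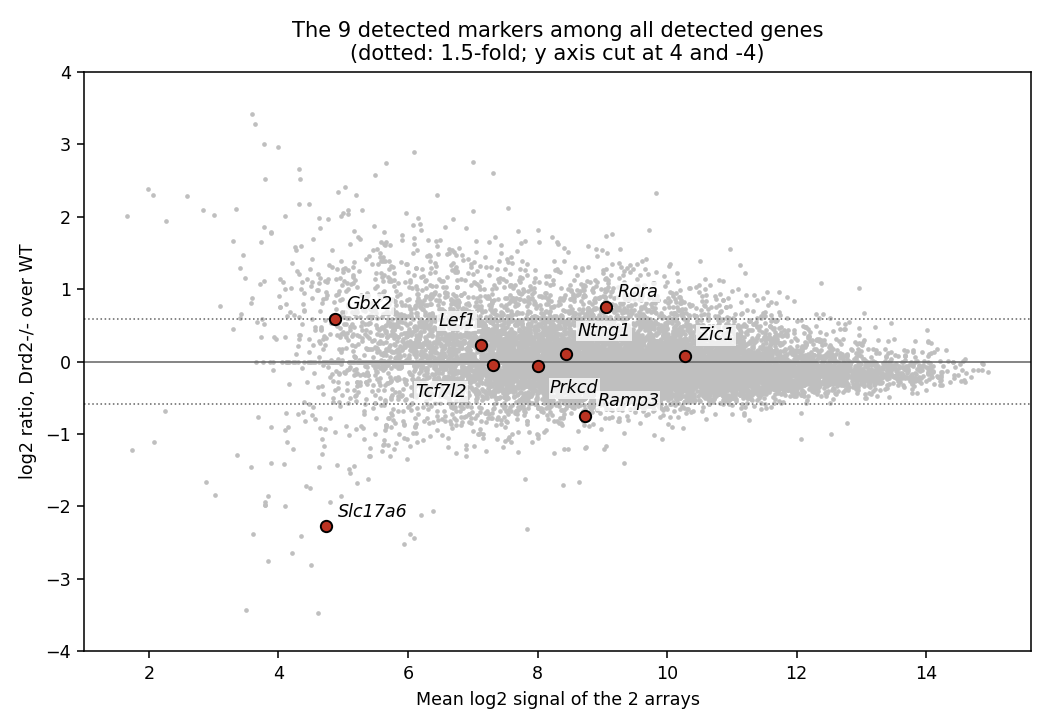
Log2 ratio of Drd2-/- over WT against the mean log2 signal of the 2 arrays for 12588 detected genes (grey) and the 9 detected markers (red); dotted lines mark 1.5-fold, and 1 gene, Drd2, lies beyond the axis. Slc17a6 and Gbx2 sit at the dim end where ratios scatter most, and Zic1 sits near 0.

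Other genes of the neighbouring regions, on lists chosen with earlier results known, gave a mixed picture of the same kind. Of 20 further thalamic and habenular genes, 11 were detected, with 1 past 1.5-fold upward, 2 downward and a median of -0.17. Over all detected genes, 9.18% passed that size upward and 3.38% downward. The habenular receptor Gpr151 read 16.5 units and was absent in Drd2-/-, against 59.5 units and present in WT, a ratio of -1.85. Cbln2, which encodes a synaptic organizer protein, read 78.9 units and was absent in Drd2-/- and read 145 units and was present in WT. Tnnt1, a troponin gene used as a thalamic marker, went the other way at 134 units in Drd2-/- and 71.2 units in WT, a ratio of 0.91. All 3 were called unchanged in the authors' deposited table, at -1.1, -0.4 and 0.2.

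Of 16 further septal genes measured, 7 were detected, with 2 past 1.5-fold upward, 0 downward and a median of 0.05. The shares over all detected genes were 9.18% upward and 3.38% downward. The neurotensin precursor Nts, a peptide of the lateral septum and also of the striatum, read 2502 units in Drd2-/- and 1385 units in WT, a ratio of 0.85, and the authors' deposited table calls it increased at 0.7. Zic5, described above, was the other. Beside the thalamic and septal genes, 5 of 7 pallidal genes were detected, with 1 past 1.5-fold upward, 0 downward and a median of -0.14. Of 11 hypothalamic genes, 5 were detected, with 2 past 1.5-fold upward, 0 downward and a median of 0.29. The 14 genes of striatal projection neurons, present on both arrays, had a median of -0.09 with 13 within 1.5-fold and the opioid precursor gene Pdyn at -0.82. For the cells inside the striatum that also use some of the 10 genes, all 13 measured oligodendrocyte genes and 10 of 11 detected endothelial genes lay within 1.5-fold, with medians of -0.11 and -0.03. Summed over the representative probe sets of all 10 members, the signal was 3351 units in Drd2-/- and 3383 units in WT. That sum includes Calb2, absent on both arrays, and is weighted to the brightest members. It adds genes that read higher, such as Rora, to genes that read lower, such as Ramp3, so near-equal totals do not mean equal genes.

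**Figure D4:**
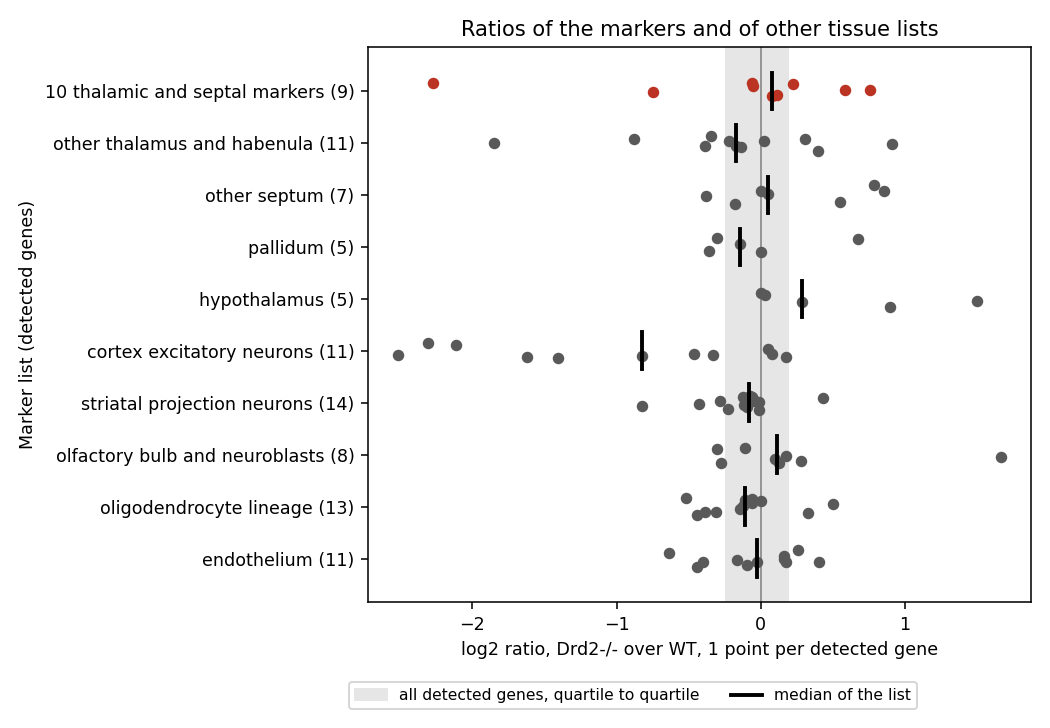
Log2 ratio of Drd2-/- over WT for each detected gene (points) of the 10 thalamic and septal markers and of 9 other tissue lists, with the list median as a bar and the range between the quartiles of all detected genes shaded. The markers spread from -2.27 to 0.75 around a median of 0.08, and the cortical list has its median at -0.82.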

How the data were processed

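Per the labels, striatum was dissected by hand and Trizol-extracted RNA was made into biotinylated cRNA for Affymetrix arrays. The authors deposited a linear signal intensity per probe set and array, scaled per array per the file headers, with a detection p-value and call. The authors' deposited comparison table adds a log2 Signal Log Ratio with limits of 1 decimal, a change p-value (not printed) and a change call. The software and its settings are not given in the sources used here. At all 45101 probe sets that table holds the value table's signals under the opposite genotype names. The sample labels were followed, calls were attached by signal, and the authors' log ratios were turned. If the table's names were right, every sign would reverse.

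A gene was represented by its probe set of highest mean log2 signal. Where 1 array alone called it present, an absent signal below the lowest signal called present on that array was raised to it. Those lowest signals were 5.9 units in Drd2-/- and 5.0 in WT. For the genes named here the signal not called present was above them. Where that signal was brighter than the one called present, the ratio was set to 0. This held for Notum and for genes of the septal, pallidal, hypothalamic and oligodendrocyte lists, and those zeros entered the counts and medians. For the other genes named here that were present on 1 array, the ratio is a plain signal ratio and not a bound. Marginal calls counted as not present, and signals below 0.1 were set to 0.1. Computation used Python 3.11.15 with pandas 2.3.3 and statsmodels 0.14.6, and was tested on simulated arrays. With 1 array per genotype, genes were counted by size at 1.5-fold, and the number of arrays limits every value. The members and lists were chosen with earlier results of these data known. Named genes were all members, genes among their detected relatives and partners, and from each other list at most the 4 largest ratios; Ppp1r1b, Nrgn, Lamp5 and Mef2c, and Zic2, Zic4 and Nr1d1, not detected, were named after their values were seen. Detected relatives not named in the text lay within 1.5-fold. Gene order and promoters came from RefSeq tables of GRCm38.p6, which were not matched to a build of the files. Alternatives covered the scaling, the detection filter, the choice of probe set, added units, the authors' log ratios and the fold limit.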

Additional observations from a re-analysis of the deposited data

How the results depend on the processing

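With 1 array per genotype no replicate could be left out, and no paired analysis was possible because each genotype has 1 sample. The count of members at least 1.5-fold higher, 2 as reported, was 1 after quantile normalization, intensity-dependent centring, 32 added units, with only genes present on both arrays and with the authors' deposited log ratios, and 0 at 2-fold. It was 3 when detected probe sets of a gene were summarised by their median. The count at least 1.5-fold lower, 2 as reported, was 1 with only genes present on both arrays, with the authors' deposited log ratios and at 2-fold. It was 3 with no filter on detection, which let Calb2 in. The member median of 0.08 was -0.080 after quantile normalization and -0.10 in the authors' deposited log ratios, so it has no settled sign. Rora stayed between 0.70 and 1 and Slc17a6 between -2.71 and -1.04 over the alternatives that gave a value. Ramp3 ran from -0.84 to -0.30 and Gbx2 from 0.12 to 0.65. Of 78 recomputed gene values, 3 moved by more than 1.5-fold, and no gene at least 1.5-fold apart changed sign. These were Slc17a6 with added units, Prkcd with the median over probe sets (0.69) and Lef1 (-0.46) with only probe sets whose deposited description gives the same gene. That last setting was chosen after seeing the data; it left 8 detected members with the counts as reported and a median of 0.01.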

Other observations

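For 15 of the 28 member probe sets the description in the authors' deposited table gives the same gene as the platform annotation, for 8 it gives no gene and for 5 another. Those 5 are 2 of Tcf7l2 and 1 each of Lef1, Rora and Ntng1. Of the 15, 10 were called present on at least 1 array and 7 on both.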
